A study of Mus musculus with 6 samples.

Results

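The 2 genes described here, Gnas and Gm20721, lie on opposite strands of the same stretch of mouse chromosome 2. They were picked by symbol, and because their levels were known to differ, from a count table of 15286 genes, of which 15258 were matched to a symbol. Both passed the filter on low counts, as did 5478 genes in all. RNA came from pancreatic islets of 12-week-old male mice on the C57Bl/6 N background, with 1 library per mouse. The 3 mutant (flox/flox) mice were homozygous for a floxed, promoter-driven neo cassette in the first intron of the long non-coding RNA A830019P07Rik (P07Rik), which ends its transcription early in every cell, and the 3 WT mice were littermates without it. No Cre was used, and no islet cell type was sorted. KO2775 and KO2776 (flox/flox) and WT2772 and WT2777 (WT) came from litter 1, and KO2938 (flox/flox) and WT2931 (WT) from litter 2. The 6 libraries held 611181 to 800255 counts each. P07Rik itself was not analysed here.

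Gnas encodes the alpha subunit of the stimulatory G protein, Gs. Hormone receptors such as those for GLP-1, GIP and glucagon activate Gs, which switches on adenylyl cyclase, and the cyclic AMP made by that enzyme acts through protein kinase A and Epac to amplify glucose-stimulated insulin release from beta cells. The locus is imprinted and uses alternative first exons, so that transcripts read from the maternal and the paternal chromosome differ. Nespas is a non-coding antisense RNA at the 5′ end of the locus that is read from the paternal chromosome. Gm20721 is an automatic Ensembl gene model with no assigned function. The counts are sums per gene and separate neither parental alleles nor transcripts.

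In the GENCODE annotation of GRCm38 (mm10), Gnas (ENSMUSG00000027523) lies on the plus strand of chromosome 2 from 174284320 to 174346744. Its 24 transcripts together cover 11186 exon bases. Gm20721 (ENSMUSG00000090625) lies on the minus strand from 174330319 to 174346712, inside the 3′ part of Gnas, and has 1 transcript of 13 exons and 1484 bases. It is annotated as protein-coding. Of its exons, 12 overlap a Gnas exon, and 4 of these begin and end at the same bases as the Gnas exon. In all, 1469 of its exon bases (99.0%) lie opposite Gnas exons and 15 do not. Of its 954 coding bases, 939 (98.4%) are also coding in Gnas, read from the other strand. The shared bases make up 13.1% of the exon bases of Gnas.

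Exons 2 and 5 of Gm20721 are shown with the Gnas exons opposite them because these pairs let the overlap be read base by base. The first pair has the same ends in both genes, so that the Gm20721 exon is the reverse complement of the Gnas exon. All sequences are given 5′ to 3′ on the strand of their own gene, from the GRCm38 genome. Gm20721 exon 2 is at chr2:174345990-174346057 on the minus strand, and exon 12 of transcript Gnas-202 is at chr2:174345990-174346057 on the plus strand.
Gm20721 exon 2: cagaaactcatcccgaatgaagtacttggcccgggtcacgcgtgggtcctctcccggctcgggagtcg
Gnas-202 exon 12: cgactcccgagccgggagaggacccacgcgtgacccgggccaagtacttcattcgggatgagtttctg

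In the second pair the ends differ. Gm20721 exon 5 is at chr2:174345225-174345301 on the minus strand and runs 3 bases past the Gnas exon, and these bases are in capitals. Exon 9 of Gnas-202 is at chr2:174345228-174345301 on the plus strand.
Gm20721 exon 5: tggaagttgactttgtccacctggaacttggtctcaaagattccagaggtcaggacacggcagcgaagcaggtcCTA
Gnas-202 exon 9: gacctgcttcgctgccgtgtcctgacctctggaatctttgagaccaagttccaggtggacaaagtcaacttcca

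Joined into transcripts, the Gm20721 transcript (1484 bases) and Gnas-202 (3903 bases) share an identical run of 926 bases when 1 of them is reverse-complemented. Read in the same direction, their longest identical run is 12 bases. A read from that run can thus be given to 1 of the genes by its strand alone.

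**Figure D1:**
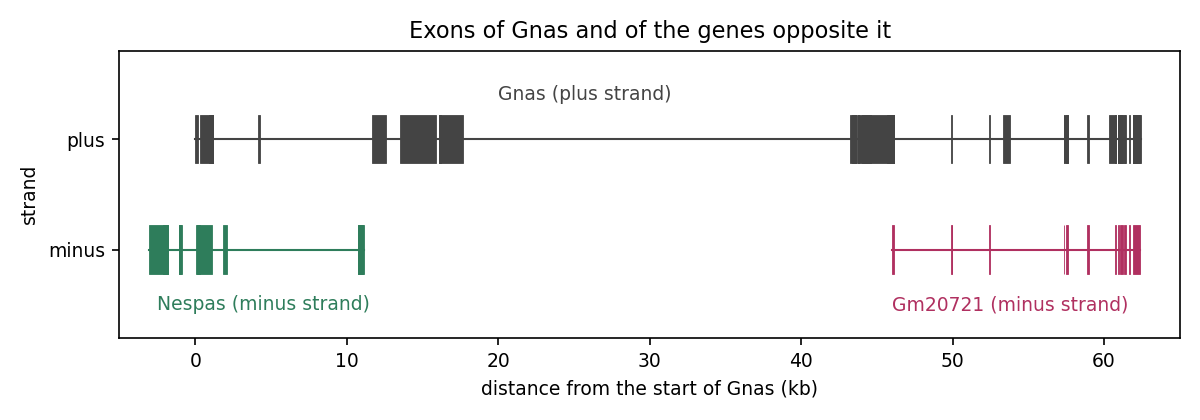
Exons (boxes) of Gnas on the plus strand and of Gm20721 and Nespas on the minus strand, by distance in kb from the start of Gnas. Gm20721 lies under the last exons of Gnas and Nespas under its first, and 78.0% of the Gnas exon bases have neither gene opposite.

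Nespas (ENSMUSG00000086537), on the minus strand from 174281237 to 174295436, overlaps the other end of Gnas. Its 3143 exon bases include 988 (31.4%) that lie opposite Gnas exons. It does not overlap Gm20721, and 8729 exon bases of Gnas have neither gene opposite. The small RNA genes Gm27869 and Gm27849 lie in the span of Gnas but share no exon base with it, and they held 9 and 7 counts over the 6 libraries.

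Nearly all counts of the pair were on Gm20721. Among WT libraries, WT2772 had 13670 counts of Gm20721, WT2777 had 13533 and WT2931 had 11341. Among flox/flox libraries, KO2775 had 12949 counts, KO2776 had 10706 and KO2938 had 8268. Over the 6 libraries these were 70467 counts, 1.66% of the table, and Gm20721 ranked 5 among all genes.

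Gnas had 52 counts in WT2772, 65 in WT2777 and 55 in WT2931, and 40 in KO2775, 32 in KO2776 and 38 in KO2938. Its total of 282 counts ranked 1898. Nespas had 116, 131 and 77 counts in the same WT libraries and 97, 94 and 86 in the flox/flox libraries, a total of 601. In each library the order was Gm20721, Nespas and then Gnas.

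**Figure D2:**
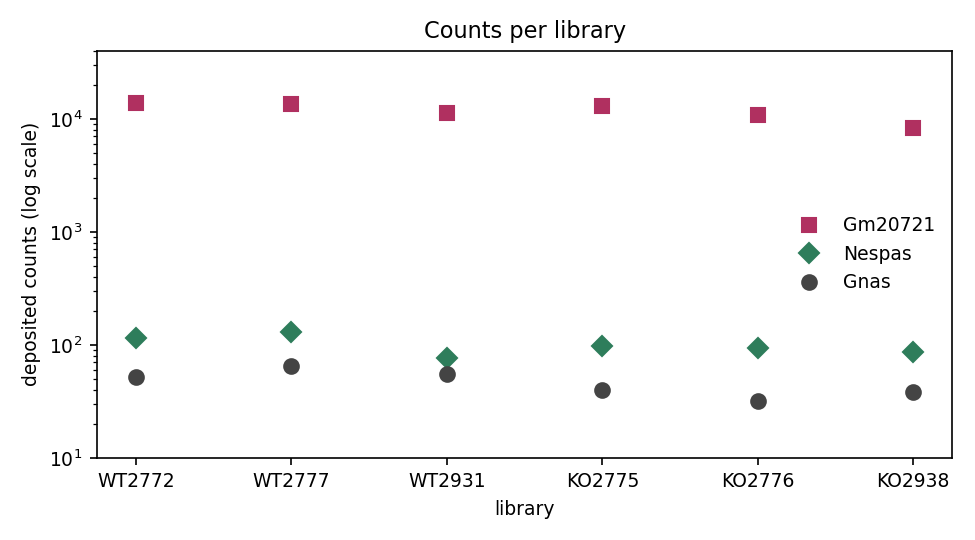
Deposited counts of Gm20721, Nespas and Gnas in each library, on a log scale. Gm20721 lies between 8268 and 13670 counts, Nespas between 77 and 131 and Gnas between 32 and 65, and the 3 genes do not overlap.

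Levels were also set on a scale that allows genes to be compared, as TMM-normalized CPM (counts scaled to a common library size) divided by the kilobases of exon. On this scale the level was 11694 ± 1351 for Gm20721, 47.3 ± 7.62 for Nespas and 6.14 ± 0.922 for Gnas (SD, n = 6). Gm20721 ranked 7 and Gnas 5733 of 15258 genes. The per-kilobase level of Gm20721 was 1951 ± 439 times that of Gnas (SD, n = 6), from 1554 in WT2931 to 2522 in KO2776. The ratio depended on the length used for Gnas, since many of its exon bases belong to alternative first exons. It was 688 ± 155 with the longest transcript of each gene, and 259 ± 58.3 from the counts with no length. Gm20721 stayed far above Gnas in each form. Nespas, read from the same strand as Gm20721, was 7.87 ± 1.80 times the level of Gnas per kilobase.

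As counted, Gm20721 also lay far above the hormone genes that define the tissue. Ins2, one of the 2 mouse insulin genes, had 909 counts in the 6 libraries and a level of 169 ± 25.3 CPM per kilobase, which ranked 463. Ins1 had 371 counts. All 16 islet secretory genes that were listed were in the table, at levels below that of Gm20721. These levels rest on the strand to which reads were assigned, and if that assignment is turned they are levels of the opposite strand of each gene.

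The libraries are described as strand-specific and made with a NEB Ribo Zero protocol. Reads were counted by the authors with the default strand setting of their counting tool. The strand that a read of this kit carries is not given in the sources used here. Gene-level counts hold no reads and no exons. The counts of this pair alone therefore cannot tell RNA of the Gm20721 strand from RNA of Gnas counted on the other strand. The same question arises for other genes of the table. Among all genes, 2215 pairs had at least 100 exon bases on opposite strands and both genes in the table. In 1250 of these pairs 1 gene was protein-coding and the other was not, and the other gene had more counts in 1010 (80.8%). The part of this pattern in the counts of Gnas and Gm20721 was not tested.

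Within these 2215 pairs, the ratio of summed counts of Gm20721 over Gnas was 250, which ranked 36. The median ratio of the higher to the lower gene was 7.02, and 98.4% of pairs had a lower ratio than this pair. By the counts of the higher gene the pair ranked 3. Both of its genes are annotated as protein-coding, and among the 893 pairs of that kind its ratio ranked 7. The pair was picked with its levels known to differ, so these ranks are a description.

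**Figure D3:**
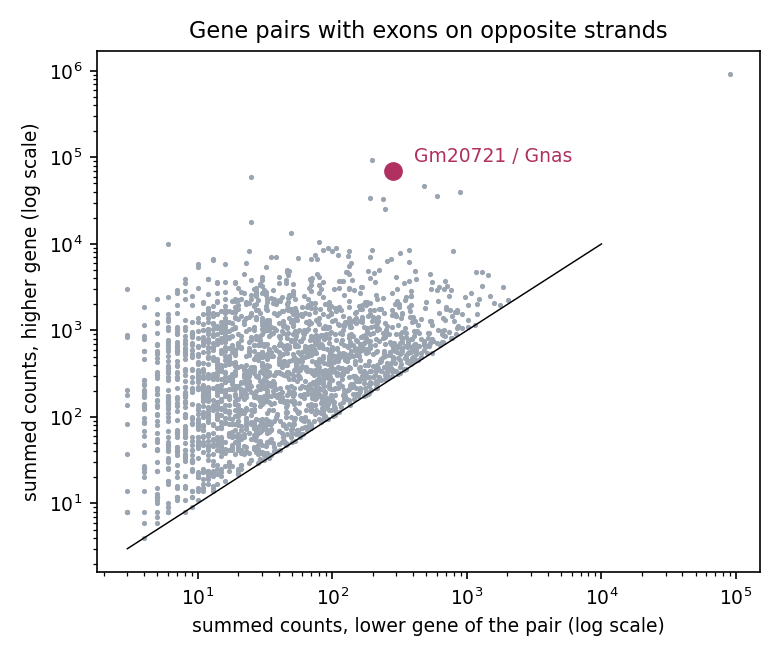
Summed counts over the 6 libraries of the higher gene (vertical, log scale) against the lower gene (horizontal, log scale) in 2215 pairs of genes with exons on opposite strands; the line marks equal counts. Gm20721 over Gnas, at 70467 and 282 counts, lies near the top of the pairs.

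The first comparison asked whether loss of P07Rik changed these genes in islets. As counted, Gnas was lower in flox/flox islets by a margin that did not pass the test. Gm20721 was at about the same mean level in both genotypes. Here and in the comparisons below, each gene name stands for the strand as counted. If the strand assignment is turned, each value belongs to the opposite strand of that gene, which for Gm20721 is the strand of Gnas. The level of Gnas was 71.3 CPM in WT2772, 84.4 in WT2777 and 74.4 in WT2931, and 59.2 in KO2775, 56.4 in KO2776 and 66.4 in KO2938. All 3 flox/flox libraries lay below all 3 WT libraries, as was the case for 202 of the 5478 tested genes (3.69%). The means were 76.7 ± 6.82 CPM in WT and 60.7 ± 5.18 CPM in flox/flox (SD, n = 3 each).

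In edgeR's quasi-likelihood test the log2 fold change of Gnas, flox/flox over WT, was -0.34 with a standard error of 0.21 (95% interval -0.79 to 0.11, unadjusted p = 0.131, Benjamini-Hochberg adjusted p = 1.00). The test called 0 of 5478 genes (0%) at an adjusted p under 0.05, and 101 genes had an unadjusted p under 0.05. The small counts limit what can be seen for Gnas. With a mean of 47 counts per library, counting alone gives a coefficient of variation of 14.6%, and that between the 6 libraries was 15.0%. In bulk islet RNA, fewer cells that express a gene and less RNA of it per cell cannot be told apart.

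Gm20721 was counted deeply enough for counting error to be small. Counting gives a coefficient of variation of 0.923%, whereas that between libraries was 11.5%. Its level was 18756 CPM in WT2772, 17565 in WT2777 and 15333 in WT2931, and 19169 in KO2775, 18855 in KO2776 and 14449 in KO2938. Libraries of both genotypes overlapped, with the highest and the lowest library both flox/flox. The means were 17218 ± 1738 CPM in WT and 17491 ± 2639 CPM in flox/flox (SD, n = 3 each). The log2 fold change was 0.023 with a standard error of 0.19 (95% interval -0.38 to 0.42, edgeR adjusted p = 1.00).

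**Figure D4:**
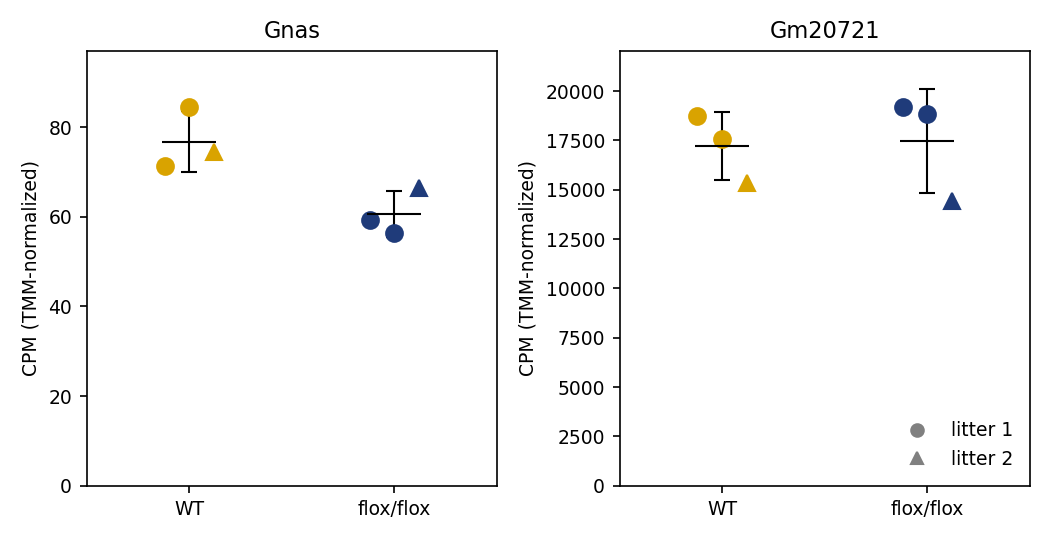
TMM-normalized CPM of Gnas (left) and Gm20721 (right) in each library, by genotype and litter, with the mean and SD of 3 libraries in black. For Gnas the flox/flox libraries (56.4 to 66.4) lie below the WT libraries (71.3 to 84.4), and for Gm20721 the libraries of litter 2 (14449 and 15333) lie below those of litter 1.

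The labels tie the libraries to litters, and each litter held both genotypes. Within litter 1 the mean log2 CPM of Gnas was 0.43 lower in flox/flox than in WT, and its difference in litter 2 was -0.16. For Gm20721 the difference was 0.067 in litter 1, where both flox/flox libraries lay above both WT libraries, and -0.086 in litter 2. The difference between litters did not pass the test for either gene (interaction log2 0.27 with a standard error of 0.43 and edgeR adjusted p = 0.958 for Gnas, and -0.15 with a standard error of 0.27 and adjusted p = 0.964 for Gm20721). With litter as a block, Gnas had a log2 fold change of -0.34 with a standard error of 0.20 (edgeR adjusted p = 0.950) and Gm20721 of 0.016 with a standard error of 0.14 (edgeR adjusted p = 0.994), and the test called 3 genes in place of 0, with neither Gnas nor Gm20721 among them. Leaving out 1 library turned the sign for Gm20721, to -0.041 without KO2775, -0.026 without KO2776 and -0.046 without WT2931.

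Nespas, the other gene opposite Gnas, had a level of 159 CPM in WT2772, 170 in WT2777 and 104 in WT2931, against 144 in KO2775, 166 in KO2776 and 150 in KO2938. Libraries of both genotypes overlapped, and WT2931 was the lowest. Its log2 fold change was 0.082 with a standard error of 0.20 (edgeR adjusted p = 1.00).

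Taken as a share, which does not depend on the scaling of libraries, Gnas held 0.379% of the counts of the pair in WT2772, 0.478% in WT2777 and 0.483% in WT2931. Among flox/flox libraries the share was lowest in KO2776 at 0.298%, then 0.308% in KO2775 and 0.458% in KO2938. KO2938 lay among the WT libraries, so the genotypes overlapped over all 6. Within each litter, every flox/flox library had a lower share of Gnas than every WT library. Wilson 95% intervals, which cover counting error only, ran from 0.289% to 0.497% for WT2772 and from 0.334% to 0.627% for KO2938. The mean share was 0.447 ± 0.0586% in WT and 0.354 ± 0.0894% in flox/flox (SD, n = 3 each). The share of Gm20721 was thus 0.0920 percentage points higher in flox/flox, with p = 0.2 in a two-sided exact permutation test, in which 3 libraries against 3 can reach no p below 0.1. With litter as a block the mean difference was 0.0753 points, and exact permutation within litters gave p = 0.167, the smallest that its 12 arrangements allow.

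The second comparison was between litters, with genotype in the model. Gm20721 stood at 14449 and 15333 CPM in the 2 libraries of litter 2 and at 17565 to 19169 CPM in the 4 of litter 1, a mean of 14891 against 18586 ± 703 (SD, n = 4). The litters did not overlap, as was the case in this direction for 879 of 5478 genes (16.0%). The log2 fold change, litter 2 over litter 1, was -0.32 with a standard error of 0.15 (95% interval -0.63 to -0.010). Its adjusted p was 0.181 in edgeR, so Gm20721 was not among the 287 genes (5.24%) called lower in litter 2. In either direction 620 genes (11.3%) were called. With DESeq2 the adjusted p was 0.0389 and with limma-voom 0.00359, at the same log2 fold change of -0.32, so the call depended on the tool. Over all alternatives the adjusted p lay between 0.00359 and 0.479.

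Gnas did not follow this pattern. Its mean level was 67.8 CPM in litter 1 and 70.4 CPM in litter 2, and the litters overlapped. The log2 fold change was 0.046 with a standard error of 0.21 (95% interval -0.38 to 0.47, edgeR adjusted p = 0.918), and it was -0.061 without KO2938. Nespas had a log2 fold change of -0.35 with a standard error of 0.17 (edgeR adjusted p = 0.174), close in size to that of Gm20721. Whether Gm20721 and Gnas differ from each other in their response to litter was not tested.

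**Figure D5:**
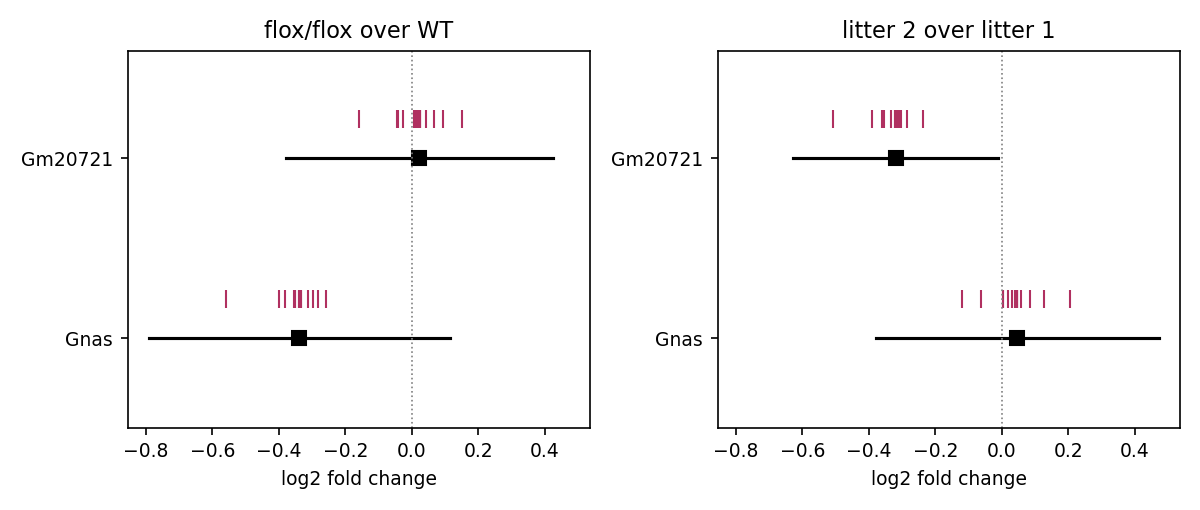
Log2 fold change of Gnas and Gm20721 for flox/flox over WT (left) and litter 2 over litter 1 (right), with squares and lines for the edgeR value and its 95% interval and ticks for the alternative settings. For genotype both intervals cover 0, and for litter the interval of Gm20721 ends at -0.010.

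In KO2938, 41.0% of counts were on AY036118, a gene inside the ribosomal RNA repeat, against 13.6% in WT2931, the other library of litter 2, and 14.5% to 22.1% in litter 1. The summed level of the 16 islet secretory genes was 1003 to 1192 CPM in litter 2 and 1302 to 1722 CPM in litter 1. Of the 11 tested, Scg2, a granin of secretory granules, fell in litter 2 by 0.96 on the log2 scale (edgeR adjusted p = 1.91e-05) and Gcg, which encodes glucagon, fell by 1.13 (edgeR adjusted p = 0.00267). Of 26 listed markers of acinar, ductal, endothelial, stromal and immune cells, 13 were in the table. Their summed level was 55.9 and 75.7 CPM in litter 2 and 52.8 to 127 CPM in litter 1. The ductal and epithelial keratin Krt8, the only tested gene of that list, fell by 1.58 in litter 2 (edgeR adjusted p = 0.0158). The acinar genes Prss2, Cela1, Cela2a and Cpb1 and the endothelial gene Kdr were at 0 in at least 1 library. All marker values here are as counted. If the strand assignment is turned, they are levels of the opposite strand of each marker and do not measure its RNA. Prss1, Krt19, Ptprc and Col1a1 were not analysed here. The part of these differences in the litter values of Gm20721 was not tested.

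The genes closest to each member were found by the root mean square difference in log2 CPM, centred per gene, over the 6 libraries. For Gnas the closest was the lincRNA Gm13620 at 0.047, against a median of 0.33 over 5477 genes. Gm13620 had counts of 49, 59 and 49 in WT2772, WT2777 and WT2931 and of 37, 27 and 34 in KO2775, KO2776 and KO2938, so that WT was higher in both genes. For Gm20721 they were the lincRNA Gm26540 at 0.035 and Ccdc84 at 0.035, against a median of 0.32. Gm26540 had counts of 96, 93 and 77 in the same WT libraries and of 94, 72 and 58 in the flox/flox libraries. With 6 libraries and 5477 genes some profiles lie close, and these values are a description.

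Gnas was then placed among the other alpha subunits of heterotrimeric G proteins. Levels and orders in this and the following lists are as counted. If the strand assignment is turned, they are those of the opposite strand of each gene. Of 16 listed, 10 were in the table and 5 were tested. On the per-kilobase scale Gnal, which encodes the olfactory-type stimulatory alpha subunit, was highest at 8.43 ± 1.03 CPM, followed by Gnas at 6.14 ± 0.922 and Gna14, of the Gq class, at 6.07 ± 2.17 (SD, n = 6). Gnas and Gna14 did not differ beyond their spread. The median log2 fold change for genotype over the 5 tested genes was -0.080, against -0.011 over all tested genes, and 0 of the 5 were called for genotype or litter, against 0% and 11.3% of all tested genes. Of the 4 with at least 100 exon bases opposite another gene, 3 had fewer counts than that gene, as did 1752 of 2690 such protein-coding genes (65.1%) in the whole table. Gnas, picked with its level known to differ, is among these 3. The other two, chosen after their values were seen, were Gnao1, with 141 counts against 3806 for 4930488L21Rik, and Gna13, with 16 against 639 for Gm11696.

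The genes that act before and after Gs were described next. In all 7 lists, from receptors to targets, there were 95 genes besides Gnas, of which 68 were in the table and 23 were tested. Of the 15286 genes of the whole table, 5478 were tested. Their totals over the 6 libraries ran from 4 to 693 counts. For genotype 0 of the 23 were called, 0 had an unadjusted p under 0.05, 13 had positive and 10 negative log2 fold changes, and the median was 0.059, against -0.011 over all tested genes. For litter 1 of the 23 was called, where 11.3% of all tested genes were.

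Among receptors coupled to Gs or Gi, 8 of 12 were in the table. Adra2a, the alpha-2A adrenergic receptor that inhibits insulin release through Gi, was highest as counted, at 17.0 ± 3.93 CPM per kilobase. Next were Gipr, the GIP receptor, at 2.93 ± 1.07 and Gpr119, a lipid receptor coupled to Gs, at 2.88 ± 0.672 (SD, n = 6). Adra2a alone was tested (log2 fold change for genotype -0.091 with a standard error of 0.25). Among beta and gamma subunits, Gng3 was highest at 35.2 ± 4.88 CPM per kilobase, then Gng5 at 16.7 ± 3.69 and Gnb4 at 5.08 ± 1.20 (SD, n = 6), and 0 of the 3 tested were called for genotype.

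Of the adenylyl cyclases, the enzymes that Gs activates, 7 of 10 were in the table and 5 were tested. Adcy7 was highest at 17.3 ± 3.73 CPM per kilobase, then Adcy5 at 7.01 ± 1.09 and Adcy3 at 6.53 ± 2.00 (SD, n = 6). Adcy7 rose in litter 2 by 0.55 on the log2 scale (standard error 0.17, edgeR adjusted p = 0.0221), while its log2 fold change for genotype was 0.076 with a standard error of 0.22. The phosphodiesterases, which break cyclic AMP down, had 12 of 16 genes in the table, led by Pde7a at 22.1 ± 3.03, Pde8b at 6.91 ± 1.78 and Pde1b at 4.95 ± 1.32 CPM per kilobase, and 0 of the 5 tested were called for genotype or litter, against 0% and 11.3% of all tested genes.

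Of protein kinase A subunits, Epac genes and Gs chaperones, 12 of 13 were in the table. Ric8a, a chaperone and exchange factor for alpha subunits, led at 9.98 ± 0.926 CPM per kilobase, then Prkar1a, a regulatory subunit of protein kinase A, at 2.96 ± 1.70 and the anchoring protein gene Akap5 at 2.44 ± 0.862 (SD, n = 6). Of cyclic AMP targets and CREB factors, 10 of 14 were in the table, led by Pdx1, a beta cell transcription factor, at 9.03 ± 3.05, Irs2, an insulin receptor substrate, at 2.07 ± 0.655 and Fos at 2.01 ± 1.16 CPM per kilobase. Too few genes of these lists were tested, 2 and 3, for their counts of calls to be read against the 11.3% of all genes called for litter.

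Among 45 listed imprinted genes, 30 were in the table and 16 were tested. Gnas ranked 12 of the 30 on the per-kilobase scale and Nespas 4. Rtl1, a retrotransposon-derived gene of the Dlk1 cluster, was highest as counted, at 294 ± 64.2 CPM per kilobase. Nnat, which encodes neuronatin, followed at 172 ± 17.9 and Commd1 at 97.7 ± 5.71 (SD, n = 6). If the strand assignment is turned, the Rtl1 values given here are those of the strand opposite Rtl1. For genotype 0 of the 16 were called, as were 0% of all tested genes. Their median log2 fold change was -0.11, against -0.011 over all tested genes, and Gnas had the most negative value. In the litter test 2 of the 16 were called, where 11.3% of all tested genes were. Rtl1 rose in litter 2 by 0.50 (edgeR adjusted p = 0.00487) and Zrsr1, a splicing factor gene inside Commd1, by 0.71 (edgeR adjusted p = 0.0309). Of the 12 with at least 100 exon bases opposite another gene, 8 had fewer counts than that gene. In the whole table this held for 2049 of 3977 such genes of any type (51.5%) and for 65.1% of the protein-coding ones. Gnas, picked with its level known to differ, is among the 8. Mest lies opposite Copg2 and Zrsr1 opposite Commd1, all in this list, so the lower gene of each pair had to be counted. The 8 are therefore a description only.

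The genes on either side of the locus were not at the level of Gm20721. Nelfcd, a subunit of the negative elongation factor, had 20.5 ± 6.22 CPM per kilobase, and Ctsz, which encodes the protease cathepsin Z, had 10.3 ± 3.11 (SD, n = 6). Prelid3b, Stx16 and Npepl1 had 6, 7 and 5 counts in all. Nelfcd fell in litter 2 by 0.73 on the log2 scale (edgeR adjusted p = 0.0389). Its log2 fold change for genotype was -0.43 with a standard error of 0.29 (edgeR adjusted p = 1.00). Apart from Gnas, Gm20721 and Nespas, Nelfcd alone of these neighbours was tested.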

How the data were processed

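Islet total RNA was sequenced from 6 male mice (3 WT, 3 flox/flox). The authors discarded reads that mapped to rRNA, aligned the rest to mm10 with HISAT2 2.1.0 and counted them on Ensembl genes with HTSeq at its default strand setting. The deposited counts are raw whole numbers per gene. A table of the authors' DESeq2 comparison holds their own fold changes and p-values and was not used.

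Groups, mice and litters follow the sample labels. Genes were tested with the quasi-likelihood method of edgeR 4.0.16 (R 4.3.3), with TMM normalization, the default low-count filter (minimum count 10) and Benjamini-Hochberg adjustment over 5478 genes. Standard errors are those implied by the F statistic. The litter test added litter to genotype. CPM use TMM library sizes, and log2 CPM a prior count of 2. Exons and sequences come from the GENCODE annotation and genome of GRCm38, later than the annotation the authors counted on. Shares of the pair were compared by exact permutation (scipy 1.17.1). The script was tested on simulated counts. DESeq2 1.42.0, limma-voom (limma 3.58.1), other normalizations and filters, and each library left out in turn were the alternatives.

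Each library is 1 mouse. Litter pairs the libraries by label: deviations from the genotype means correlated between 0.14 and 0.46 for WT and flox/flox libraries of the same litter, and between -0.35 and -0.25 across litters, where negative values follow from the centring. No 2 libraries agreed within sampling noise (lowest chi-square per degree of freedom 1.59). The 2 members and the 12 gene lists were chosen with earlier results of these data known. By rule, the text names the members, genes overlapping Gnas, the 2 nearest genes to each member, the 3 genes with the highest level per kilobase in each list, and list members with an unadjusted p under 0.05 for genotype. Locus neighbours, genes called for litter and missing markers were named after their values were seen. A result for 1 of the nearest genes is not reported here. Mitochondrial genes, 13 of which were listed, were not analysed here.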

Additional observations from a re-analysis of the deposited data

How the results depend on the processing

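The log2 fold change of Gnas for genotype kept its direction and its side of the threshold in all 16 alternatives, from -0.56 (library size only) to -0.26, with edgeR, DESeq2 or limma-voom adjusted p between 0.933 and 1.00. That of Gm20721 turned to -0.16 with library size only, and lay between -0.046 and 0.15 with each library left out in turn, being -0.041 without flox/flox replicate 1, -0.026 without flox/flox replicate 2 and -0.046 without WT replicate 3. The number of genes called for genotype was 0, but 2 with library size only, 3 with litter as a replicate block, and 0 to 1 with a library left out. The replicate block changed no call on the pair. Library size only moved the median of all genes by -0.21 for genotype (to -0.23) and by -0.18 for litter (to -0.19).

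For litter, Gnas turned to -0.12 with library size only and to -0.061 without flox/flox replicate 3 (KO2938), and ranged from -0.061 to 0.20 with a library left out. Gm20721 stayed negative, from -0.51 to -0.24, and passed the threshold with DESeq2 (-0.32) and limma-voom (-0.32). The count of genes called was 620 (333 higher in litter 2), against 265 (46 higher) with library size only, 187 (89 higher) with DESeq2, 612 (264 higher) with upper quartile normalization, and 233 to 540 with a library left out, 233 being without WT2931. The ratio of Gm20721 to Gnas was 688 with the longest transcripts, 259 with no length and 1837 to 2031 with a library left out. The difference in share ranged from 0.0638 to 0.144 percentage points with a library left out, was 0.101 from summed counts and 0.0753 as the mean within litters with the replicate block. The cause of these changes was not tested. A ratio from exon bases outside the overlap was not run, since the counts are not given per base. Small counts limit what can be seen for Gnas, whose 32 to 65 counts per library leave a counting error about as large as the spread over all 6 libraries.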
